A study of Mus musculus with 3 samples.

Results

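The genes described here belong by symbol to the matrix metalloproteinase (MMP), ADAM and ADAMTS families of extracellular metalloproteases. With them stand the tissue inhibitors of metalloproteinases (TIMPs), the serpins, and the plasminogen activators Plat and Plau. The rule that chose all of these genes reads the gene symbol alone, although the families were proposed with earlier results of these data known. The rule found 141 genes among 33101 gene names with a value. They are 23 MMP, 32 ADAM, 19 ADAMTS, 4 TIMP and 61 serpin genes, with Plat and Plau. GENCODE M21 annotates 139 of them as protein-coding. Of the rest, a serpin gene is a transcribed pseudogene without a protein, and Mmp1a is a polymorphic pseudogene. Messenger RNA came from dentate gyri dissected from both hemispheres of male wild-type C57Black6 mice aged 8 to 10 weeks, with no treatment named in the labels. The series holds 1 group of 3 libraries, described as biological replicates. The table carries 1 FPKM value per gene for that group (fragments mapped to a transcript, divided by its length and by the library total), so no value has a replicate error and no difference between genes could be tested. The depth behind the values is unknown. Low values multiplied by the length of the listed transcript in kb were looked at up to 0.15. They were most frequent between 0.01 and 0.0175, and which fragment count that peak stands for is not known. They formed no separate steps from which fragment counts could be read.

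As background, MMPs, ADAMs and ADAMTS proteases cut proteins of the extracellular matrix and the cell surface with a zinc ion held by histidines in the catalytic site. TIMPs block many of them by occupying that site. Most serpins are suicide inhibitors of serine proteases: the target cuts an exposed reactive centre loop, the loop inserts into the body of the serpin, and the protease stays trapped. In the hippocampus these families are known for remodelling of perineuronal matrix, shedding of adhesion molecules and growth factors, and the control of tissue plasminogen activator (the product of Plat) at synapses.

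Sequences at the catalytic zinc site set the abundant ADAM genes apart into enzymes and proteins without that site. The coding bases of the site were read from GENCODE M21 transcripts (build GRCm38), 33 bases each. Capitals mark the codons of the first zinc-binding histidine, the catalytic glutamate and the other zinc-binding histidines, or the codons aligned with them. The first 7 sequences carry the site, and the last 3 are stretches of Adam11, Adam22 and Adam23. Those of Adam22 and Adam23 were aligned with the site of Adam9. Adam11 aligned to Adam9 with a gap inside the site, so its stretch was placed through its closer relative Adam22.
Mmp17: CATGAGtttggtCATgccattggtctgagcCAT
Mmp24: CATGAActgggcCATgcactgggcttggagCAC
Adam10: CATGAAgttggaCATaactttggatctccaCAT
Adam17: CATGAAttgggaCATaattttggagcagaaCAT
Adam9: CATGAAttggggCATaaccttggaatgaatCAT
Adam15: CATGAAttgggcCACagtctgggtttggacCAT
Adamts1: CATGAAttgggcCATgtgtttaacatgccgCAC
Adam11: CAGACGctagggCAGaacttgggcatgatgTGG
Adam22: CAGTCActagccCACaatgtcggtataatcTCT
Adam23: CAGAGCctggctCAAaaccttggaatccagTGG
Of the 4 capital codons, Adam11 and Adam23 kept 0 and Adam22 kept 1 as a codon for the same residue. In GRCm38 the sites on the plus strand lie at chr5:129596597-129596629 (Mmp17), chr2:155807427-155807459 (Mmp24) and, split by an intron, chr9:70754296-70761585 (Adam10). Those on the minus strand lie at chr12:21336732-21336764 (Adam17), chr8:24990326-24990358 (Adam9), chr3:89344780-89344812 (Adam15) and, split by an intron, chr16:85799191-85799545 (Adamts1). The aligned stretches lie at chr11:102773613-102773645 (Adam11, plus), chr5:8143064-8143096 (Adam22, minus) and chr1:63547763-63547795 (Adam23, plus). Across the families, all 23 MMPs and all 19 ADAMTS genes encode the site in their longest coding form. Here the eighth residue could be glycine, asparagine or serine. With glycine alone, as first planned, 13 of the 19 ADAMTS genes matched. Of the 32 ADAM genes, 19 encode the site.

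A second stretch was read in 6 of the serpins, the hinge at the start of the reactive centre loop. There inhibitory serpins carry a run of small residues that lets the cut loop insert. The 27 bases below end with the 4 codons of that run, and capitals mark those of them that encode alanine. The stretches of the other genes were found by aligning their proteins to that of Serpina3n. Serpinh1 was tried too, but its protein gave no gap-free alignment over this stretch, so it is not shown.
Serpina3n: gagacaggcacagaaGCAGCTGCTGCC
Serpine2: gaagatggaaccaaaGCTtcgGCAGCA
Serpini1: gaagaagggtcagaaGCCGCTGCAGCC
Serpinb6a: gaggagggcacagagGCTGCAGCTGCT
Serping1: gagtcaggggtggaaGCAGCTGCAGCC
Serpinf1: gaagagggggcaggaagcagccccagc
Serpina3n, Serpini1, Serpinb6a and Serping1 encode alanine in all 4 places, Serpine2 in 3 and Serpinf1 in 0. The count covers alanine alone and does not measure the whole run of small residues. The tcg codon of Serpine2 and the agc codons of Serpinf1 encode serine, which is also small. The ccc codon of Serpinf1 encodes proline. Serpinf1 encodes pigment epithelium-derived factor, a serpin known to lack inhibitory activity. In GRCm38 these stretches lie on the plus strand at chr12:104413442-104413468 (Serpina3n) and chr3:75637974-75638000 (Serpini1). On the minus strand they lie at chr1:79799472-79799498 (Serpine2), chr13:33918173-33918199 (Serpinb6a), chr2:84765700-84765726 (Serping1) and chr11:75410269-75410295 (Serpinf1).

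A few genes carried most of the transcript level of these families, while many members were listed at 0. Of the 141 genes, 32 (22.7%) reached 1 FPKM, against 39.6% of all names and 56.4% of protein-coding names. At 10 FPKM or more stood 18 genes (12.8%), against 21.1% of all names and 30.8% of protein-coding names. Another 63 (44.7%) were listed at 0, against 40.4% of all names and 24.1% of protein-coding names. A listed 0 may be a failed Cufflinks estimate as well as a transcript without fragments. The median over all 141 genes was 0.00776 FPKM, beside 0.0869 FPKM over all names and 2.46 FPKM over protein-coding names. Their summed level was 599 FPKM, of which the 5 highest genes held 50.7% and the 18 genes at 10 FPKM or more held 90.2%.

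**Figure D1:**
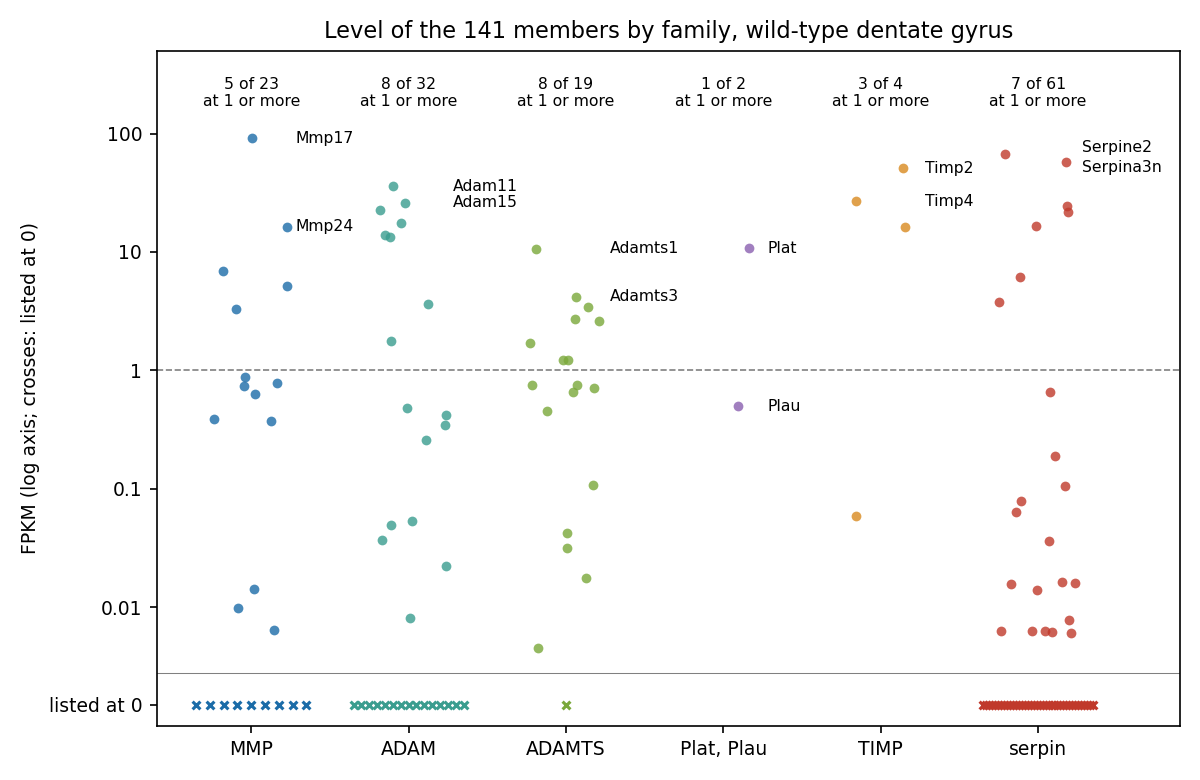
Each point is the deposited FPKM of 1 gene (log axis) and each cross a gene listed at 0, grouped by family; the dashed line marks 1 FPKM. Serpins have the most genes listed at 0 (38 of 61), and 3 of 4 TIMP genes stand above 10 FPKM.

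The families differed in how much of the level they held. Serpins summed to 199 FPKM (33.2% of the total), ADAMs to 136 FPKM (22.7%), MMPs to 127 FPKM (21.2%) and TIMPs to 94.3 FPKM (15.7%). ADAMTS genes summed to 31.3 FPKM (5.22%), and Plat and Plau to 11.2 FPKM (1.87%). The share of genes that reached 1 FPKM ran from 7 of 61 serpins (11.5%) through 5 of 23 MMPs (21.7%), 8 of 32 ADAMs (25%) and 8 of 19 ADAMTS genes (42.1%) to 3 of 4 TIMPs (75.0%). ADAMTS genes were thus often detected at a low level: 10 of 19 lay between 0 and 1 FPKM, and Adamts12 was the 1 member listed at 0. Genes encoding TIMPs and serpins together summed to 293 FPKM, 1.26 times the 233 FPKM of the 63 genes for plasminogen activators and for metalloproteases with the zinc site. Most serpins inhibit serine proteases, and the only genes of such proteases in that sum are Plat and Plau. The ratio therefore does not match inhibitors with their targets. The TIMP genes alone, whose products inhibit metalloproteases, summed to 94.3 FPKM. That was 0.424 times the 222 FPKM of the metalloprotease genes with the site. TIMPs differ in which of these proteases they inhibit, so this ratio does not match inhibitors with their targets either.

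**Figure D2:**
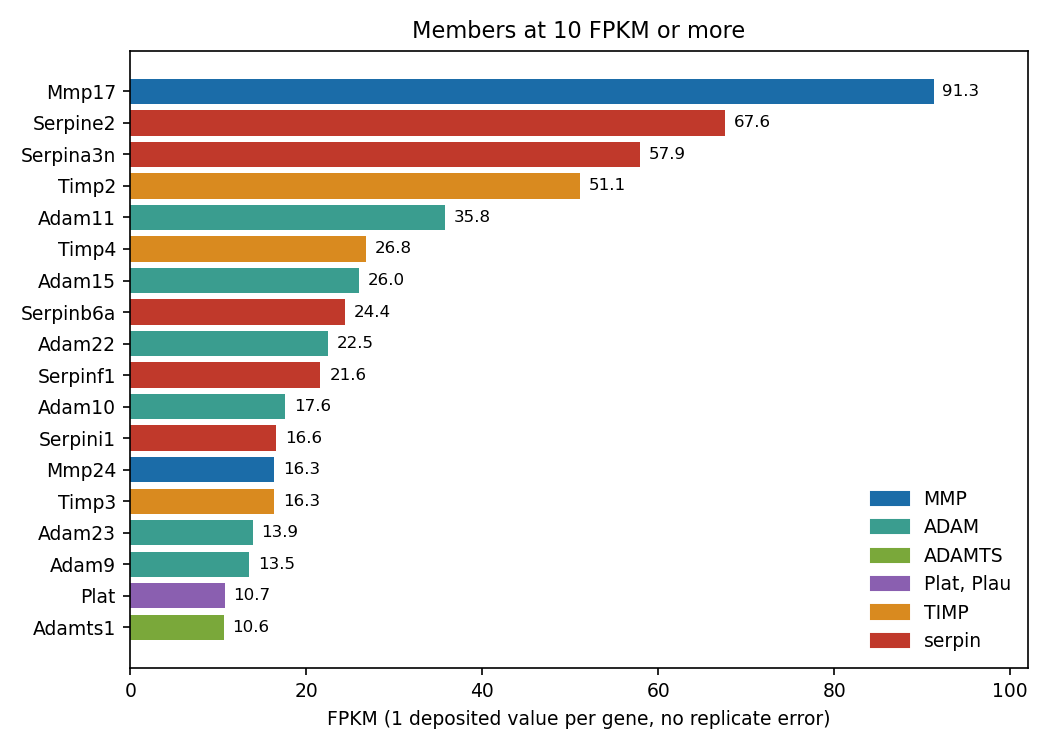
Bars give the FPKM of the 18 genes at 10 FPKM or more, coloured by family, with no error since each gene has 1 deposited value. Mmp17 leads at 91.3 FPKM, followed by Serpine2, Serpina3n and Timp2, and genes of all 6 families appear down to Adamts1 at 10.6 FPKM.

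Among MMPs, the level lay in the membrane-type enzymes. Mmp17, which encodes a membrane-type MMP attached through a lipid (GPI) anchor, was at 91.3 FPKM, rank 753 among all names and above 97.1% of protein-coding names. Its listed transcript spans 130090089 to 130114086 on chromosome 5 in mm9. It alone held 72.1% of the MMP sum. Mmp24, a membrane-type MMP known from brain and able to cut N-cadherin, was at 16.3 FPKM.

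The transmembrane relatives Mmp16, Mmp15 and Mmp14 were at 6.85, 5.13 and 3.32 FPKM. Mmp25, the other GPI-anchored member and the closest relative of Mmp17 by protein sequence (47.8% identity), was at 0.00988 FPKM. So 5 of 6 membrane-type genes reached 1 FPKM, while 0 of the other 17 MMP genes did. The gelatinases, which cut denatured collagen and are widely studied in synaptic plasticity, were at 0.628 FPKM (Mmp2) and 0.388 FPKM (Mmp9). The listed transcript of Mmp9 was a short coding form of 416 nt, and its value may belong to that form.

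Secreted collagenases and stromelysins were near or at 0. Of the collagenase genes, Mmp13 was at 0.0142 FPKM, and Mmp8, Mmp1a and Mmp1b were listed at 0. Mmp3, Mmp7 and Mmp10 of the stromelysin and matrilysin group were listed at 0 too. Mmp11, which differs from that group in being activated inside the cell by furin, was at 0.731 FPKM, with a listed transcript of 335 nt that is a nonsense-mediated decay form. Among the other 7 MMP genes, Mmp23 was highest at 0.880 FPKM and Mmp21 lowest above 0 at 0.00648 FPKM.

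ADAM transcripts came in similar summed amounts from genes with and without a catalytic site. The catalytically inactive members Adam11, Adam22 and Adam23, whose proteins act at synapses and axons as receptors for the secreted LGI proteins, were at 35.8, 22.5 and 13.9 FPKM. They summed to 72.3 FPKM. The 9 ADAM genes with the zinc site, leaving out the testis-type genes, summed to 61.8 FPKM. Adam11 exceeded Adam22 by 1.59-fold, and Adam22 exceeded Adam23 by 1.62-fold. Their proteins share 44.4% to 53.1% of residues, pair by pair.

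Among ADAMs with the site, Adam15, which can bind integrins, was at 26 FPKM. Adam10, the main alpha-secretase of neurons and the protease that sheds Notch and N-cadherin, was at 17.6 FPKM. Adam9, another widely expressed sheddase, was at 13.5 FPKM. Adam17, which sheds tumour necrosis factor and ligands of the EGF receptor, was at 3.67 FPKM, below Adam10 by 4.78-fold. The listed transcript of Adam10 is a nonsense-mediated decay form, and those of Adam15 and Adam22 were not found in GENCODE M21, so their values may not cover all forms of these genes. Adam33 was lowest above 0 at 0.0221 FPKM, and 1 of the 9 genes, Adam28, was listed at 0.

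Testis-type ADAM genes, known for roles in sperm, were low. Of 20 such genes, 14 were listed at 0 and 5 lay between 0 and 1 FPKM. Adam1a, which encodes a form of fertilin alpha, was highest at 1.77 FPKM, and Adam18 lowest above 0 at 0.00817 FPKM. Adam1a lies beside Adam1b, which was at 0.480 FPKM. The germ cell markers fixed for comparison (Prm1, Prm2, Tnp1, Ldhc and Zpbp) reached 1 FPKM in 0 of 5 cases.

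ADAMTS genes were led by Adamts1, which encodes a secreted protease that cuts aggrecan and versican, at 10.6 FPKM. Its span in mm9 is 85794072 to 85803358 on chromosome 16. The related proteoglycan-cleaving enzymes Adamts4 and Adamts5, known for cutting the brain proteoglycans of the lectican family, were at 0.0426 and 0.107 FPKM. Adamts1 exceeded Adamts4 by 250-fold, and by 11.2-fold with 1 FPKM added to both values. Of the 7 genes in this group, 4 reached 1 FPKM: Adamts1, Adamts20 at 2.62 FPKM, Adamts9 at 1.23 FPKM and Adamts15 at 1.22 FPKM.

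Of the procollagen N-proteinases, Adamts3 was at 4.20 FPKM, Adamts2 at 0.749 FPKM and Adamts14 at 0.651 FPKM. The Adamts3 protein is also known to cut reelin, a glycoprotein that guides the layering of granule cells. It held 75.0% of the sum of these genes. Among the other 9 ADAMTS genes, Adamts17 was highest at 3.46 FPKM and Adamts7 lowest above 0 at 0.00457 FPKM.

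TIMP genes ranked high, with 1 exception. Timp2 was at 51.1 FPKM, Timp4 at 26.8 FPKM and Timp3 at 16.3 FPKM, above 93.6%, 85.9% and 78.1% of protein-coding names. Timp1, the inducible member that rises in many tissues after injury, was at 0.0587 FPKM. Timp2 exceeded Timp3 by 3.13-fold, Timp4 exceeded Timp3 by 1.64-fold, and Timp2 exceeded Timp1 by 870-fold, or by 49.2-fold with 1 FPKM added to both. The Timp2 transcript listed spans 118162383 to 118216820 on chromosome 11, that of Timp3 spans 85763117 to 85812251 on chromosome 10, and that of Timp4 spans 115195634 to 115201867 on chromosome 6, all in mm9.

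Pairs of a TIMP gene with the gene of a known target went in both directions. Timp2, whose product both inhibits MMP2 and helps membrane-type MMPs to activate it, exceeded Mmp2 by 81.4-fold, or by 32-fold with 1 FPKM added to both. Mmp14, which performs that activation, exceeded Mmp2 by 5.28-fold, or by 2.65-fold with 1 FPKM added. Timp3, the matrix-bound inhibitor with the widest reach over ADAM and ADAMTS proteases, exceeded Adam17 by 4.44-fold and Adamts4 by 383-fold, the latter by 16.6-fold with 1 FPKM added to both. It lay close to Adam10, which was 1.08 times as high. Adam10 exceeded Timp1, which also inhibits its product, by 299-fold, or by 17.5-fold with 1 FPKM added to both.

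In the plasminogen activator system, the gene of the tissue-type activator was well above that of urokinase. Plat was at 10.7 FPKM (chromosome 8, 23868216 to 23893319 in mm9). Plau, the urokinase gene, was at 0.497 FPKM, 21.6-fold below Plat, or 7.83-fold with 1 FPKM added to both. Serpinf2, the gene of the plasmin inhibitor alpha-2-antiplasmin, was listed at 0.

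Genes of a pair of inhibitors known in brain were higher than Plat. Serpine2, which encodes protease nexin-1, an inhibitor of thrombin and plasminogen activators, was at 67.6 FPKM, 6.30 times Plat and above 95.6% of protein-coding names. Serpini1, which encodes neuroserpin, the neuronal inhibitor of tissue plasminogen activator, was at 16.6 FPKM, 1.54 times Plat. Serpine2 exceeded Serpini1 by 4.08-fold. In mm9 the Serpine2 transcript spans 79790772 to 79855271 on chromosome 1 and the Serpini1 transcript spans 75361469 to 75447417 on chromosome 3.

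**Figure D3:**
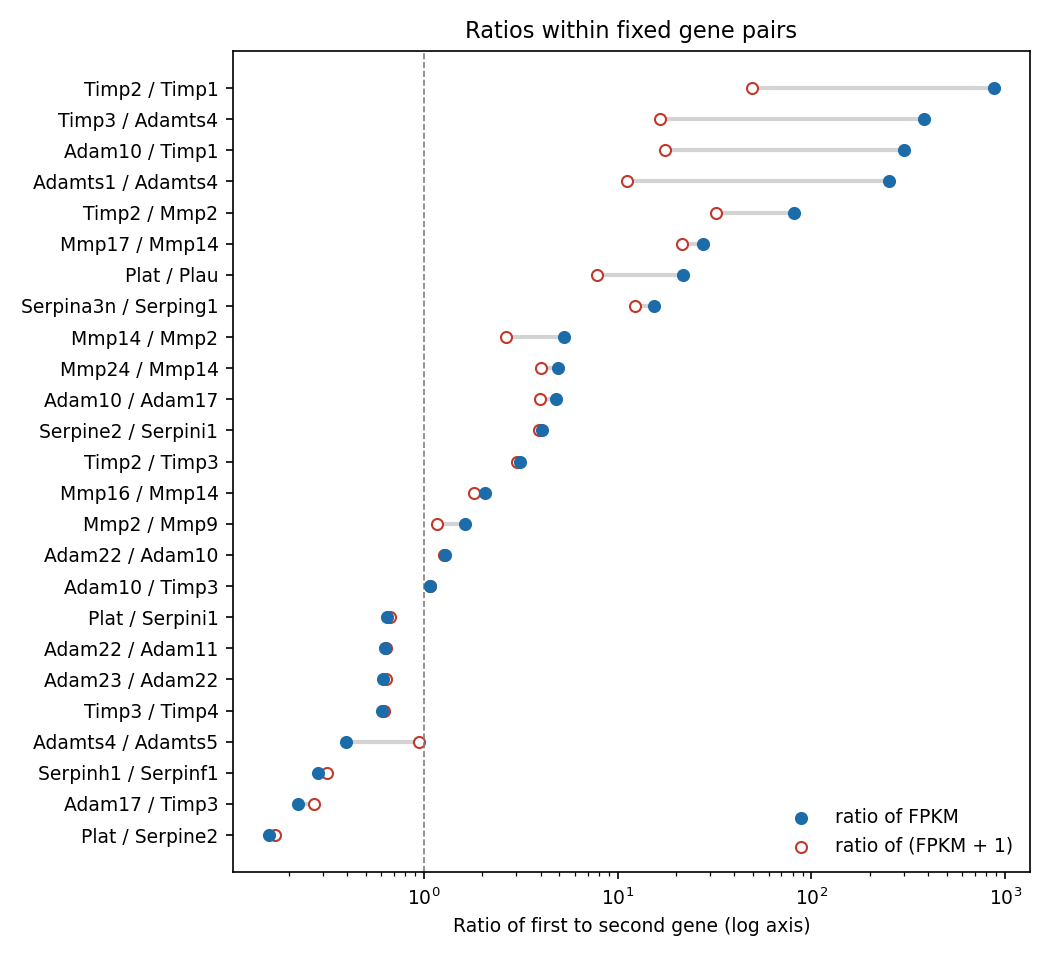
Filled points give the ratio of the first to the second gene's FPKM (log axis) for 25 pairs in which both genes were above 0; open points give the ratio with 1 FPKM added to both. The ratios run from 0.159 for Plat to Serpine2 to 870 for Timp2 to Timp1, and the open points show that ratios against genes near 0 shrink most.

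The 5 serpins at 10 FPKM or more came from 5 different clades. Serpina3n, an acute-phase serpin known in brain from reactive astrocytes, was at 57.9 FPKM and held 99.6% of the sum over 24 clade A genes. The lowest clade A gene above 0, Serpina12, was at 0.00603 FPKM, and 14 were listed at 0. Serpinb6a, an intracellular inhibitor of cathepsin G, was at 24.4 FPKM and held 96.6% of the sum over 26 clade B genes. Of those, 21 were listed at 0, and the lowest above 0 was Serpinb6e at 0.0362 FPKM. The listed transcript of Serpinb6a, 930 nt long, is shorter than its longest coding form of 1197 nt.

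The clades with few genes each had at most 1 gene at 1 FPKM or more. Serpinf1 was at 21.6 FPKM. Serpinh1, which encodes a collagen chaperone of the endoplasmic reticulum and no protease inhibitor, was at 6.14 FPKM, 3.52-fold below Serpinf1. Serping1, which encodes the inhibitor of complement proteases C1r and C1s, was at 3.79 FPKM, 15.3-fold below Serpina3n. Serpinc1 and Serpind1, the genes of the plasma thrombin inhibitors antithrombin and heparin cofactor, were at 0.0160 and 0.0786 FPKM. Serpine3 was at 0.0141 FPKM, and Serpini2 was listed at 0.

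Reads could be shared between close relatives in some of these clades. Serpina3n and its nearest member, Serpina3i, share 85.0% of coding bases, and Serpinb6a and Serpinb6b share 85.9%. The authors' rule for dividing reads between such copies is not given in the sources. These nearest members were at 0.0162 and 0.105 FPKM. For the other 16 genes at 10 FPKM or more, the nearest member shared 41.9% to 64.7% of coding bases.

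Many members lie in gene clusters, and within a cluster at most 1 gene reached 1 FPKM. Taking runs of members of 1 family whose neighbouring starts lay within 500 kb, 86 of the 141 genes fell into 15 clusters. Of these 86 genes, 8 reached 1 FPKM and 57 were listed at 0. Of the 55 genes outside clusters, 24 reached 1 FPKM and 6 were listed at 0. Among all names, 39.6% reached 1 FPKM and 40.4% were listed at 0. Among protein-coding names, these shares were 56.4% and 24.1%. The clusters hold most of the serpin and testis-type ADAM genes and no TIMP gene. Position in a cluster and family therefore cannot be told apart in these counts. Nearest members were sought only for genes at 10 FPKM or more. The part of shared reads in the low values and listed 0s of the clusters was not tested. The largest cluster holds 23 clade A serpins between 104854885 and 105652539 on chromosome 12 in mm9, where Serpina3n at 57.9 FPKM was followed by Serpina3g at 0.189 FPKM. Serpina3n lies at the last position of that cluster by transcript start.

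The clade B serpins lie in a pair of clusters with different levels. On chromosome 13, 15 genes between 32933961 and 34094663 included Serpinb6a at 24.4 FPKM, followed by Serpinb1a at 0.662 FPKM, with 10 listed at 0. On chromosome 1, all 11 genes between 108757750 and 109505486 were listed at 0. That cluster holds serpins known from skin and other epithelia, such as Serpinb5, the maspin gene. Of the 4 keratinocyte markers fixed for comparison, 1 reached 1 FPKM, Lor at 2.84 FPKM, and their median was 0.734 FPKM. The part of such cells in these values was not tested. The MMP cluster on chromosome 9, between 7272514 and 7699585, holds the secreted collagenases and stromelysins, and 9 of its 10 genes were listed at 0. Of the 11 smaller clusters, 6 had 1 gene at 1 FPKM or more and 5 had none. In 4 of the 6, Serpini1 lies beside Serpini2, Serpinf1 beside Serpinf2, Adamts1 beside Adamts5, and Adam9 beside 4 testis-type genes, of which Adam3 was highest at 0.0370 FPKM. The other 2 hold genes of closer level, Adamts15 at 1.22 beside Adamts8 at 0.712 FPKM, and Adam1a beside Adam1b.

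**Figure D4:**
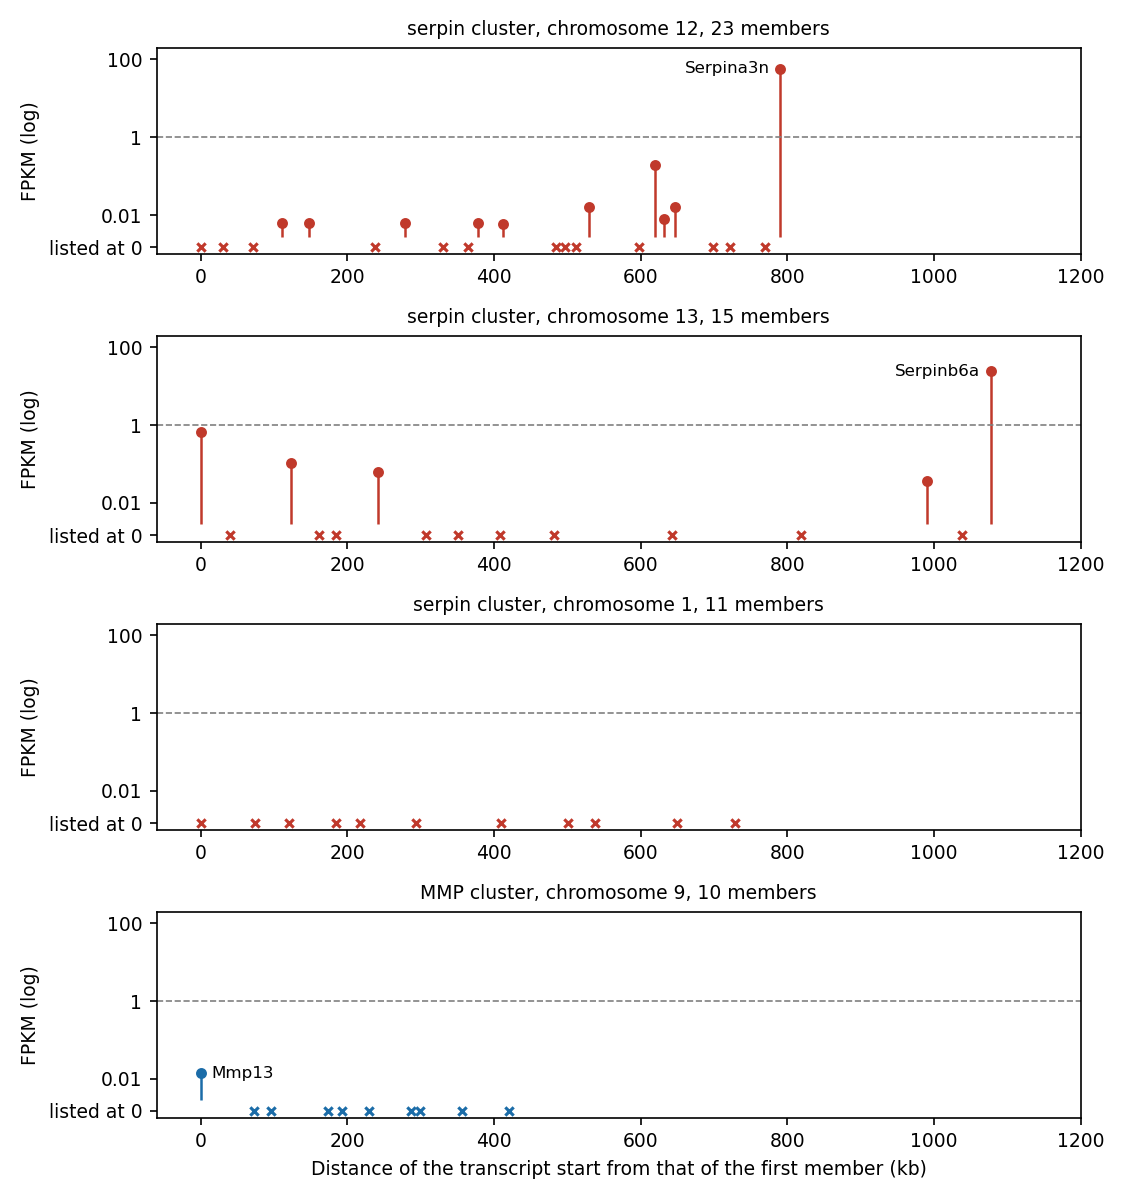
Each panel shows 1 of the 4 clusters with 10 or more members, with FPKM on a log axis against distance of the transcript start from that of the first member in kb; crosses mark genes listed at 0. Serpina3n and Serpinb6a stand above the dashed line at 1 FPKM, and no gene of the lower panels does.

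Partner genes of these families, taken from a list of 52 of which 51 were found by symbol, reached 1 FPKM in 36 cases (70.6%), and 5 (9.80%) were listed at 0. These shares were 39.6% and 40.4% among all names and 56.4% and 24.1% among protein-coding names, and the difference was not tested. Lgi1 and Lgi3, the genes of secreted ligands of the inactive ADAMs, were at 81.1 and 36.7 FPKM, and 4 of 4 LGI genes reached 1 FPKM. Among genes whose products steer ADAM10 and ADAM17, the tetraspanins Tspan5, Tspan33, Tspan17 and Tspan14, which escort ADAM10 to the cell surface, were at 57.8, 28.1, 12.6 and 12.1 FPKM. Tspan10, of the same tetraspanin group, was listed at 0.

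The partner list for the plasminogen system also held clotting, kallikrein and receptor genes. On it, the endocytic receptor gene Lrp1, whose product clears complexes of proteases with serpins, was at 33.3 FPKM. Its relatives Sorl1, Vldlr and Lrp8 were at 35.6, 12.8 and 11 FPKM. F3, the tissue factor gene, was at 24 FPKM and Vtn, the vitronectin gene, at 16.8 FPKM. The thrombin precursor gene F2 and the kallikrein gene Klk6 were listed at 0. Plg, the gene of the plasminogen precursor itself, was at 0.0112 FPKM (chosen after seeing that value).

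Of the lecticans, substrates of the ADAMTS proteases, Bcan and Ncan, the brevican and neurocan genes, were at 66.3 and 41.3 FPKM. Acan and Vcan, the aggrecan and versican genes, were at 1.13 and 0.335 FPKM (chosen after seeing those values). Bsg, whose product induces MMPs in neighbouring cells, was at 204 FPKM. Of the other inhibitors, Cst3, the gene of the cysteine protease inhibitor cystatin C, was at 944 FPKM and Cstb at 24.4 FPKM. The testican genes Spock2, Spock3 and Spock1 were at 126, 24.9 and 15.3 FPKM, and Wfdc2 was listed at 0. Adamtsl2, an ADAMTS-like gene without a protease domain, was at 18.1 FPKM, and Papln was listed at 0.

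The dissected tissue carried the markers of its labelled region: 4 of 4 granule cell genes (Prox1, C1ql2, Calb1, Dsp) exceeded 10 FPKM, with a median of 61.1 FPKM. Astrocyte, oligodendrocyte and microglial genes exceeded 10 FPKM in 6 of 6, 4 of 4 and 5 of 5 cases, so the levels above come from mixed cells. Which cells carried each transcript was not tested, and in bulk tissue fewer cells of a type and less RNA per cell cannot be told apart. Genes of endothelium, mural cells and meningeal fibroblasts had medians of 1.69, 3.65 and 2.76 FPKM, and 0 of these 12 genes reached 10 FPKM. Of the endothelial genes, Pecam1 was listed at 0 while Cldn5, Flt1 and Tek were at 7.96, 2.02 and 1.35 FPKM. Hepatocyte genes, fixed because liver is the main source of many clade A serpins, reached 1 FPKM in 0 of 5 cases, with Apoa1 highest at 0.0825 FPKM. Their part in the serpin values was not tested.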

How the data were processed

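Libraries were made from fragmented poly(A) RNA by random priming and read on an Illumina HiSeq, per the labels' protocols. The authors aligned and quantified reads with TopHat and Cufflinks on mm9 (NCBIM37), per the submitters' processing notes. The sources used here give no versions, no strand setting and no account of how the 3 libraries were combined, so overlapping antisense reads cannot be told apart. FPKM values are as the authors deposited them, 1 for each of 36469 of 37681 rows.

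Rows sharing a symbol were summed; no member shared one. The 3 libraries form 1 group by title, and with 1 value column the text gives levels, counts, medians and ratios without tests. Gene types, listed transcripts and coding sequences came from GENCODE M21 (GRCm38), by Ensembl identifier for all 141 genes. Coding sequences were translated for 140, and proteins were aligned pairwise (BLOSUM matrix, gap penalties of 11 and 1). Identity is given over the shorter protein. In the zinc site, the eighth residue could be glycine, asparagine or serine, which widened the planned glycine to take in further ADAMTS proteins. With glycine alone, 13 of 19 ADAMTS genes matched.

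Members, lists and pairs were chosen with earlier results of these data known. Named were genes at 10 FPKM or more, the TIMPs, Plat, Plau, both genes of each pair, all of a small subgroup, the highest and lowest of the others, and partner genes at 10 FPKM or more or at 0. Adamts20, Adamts9, Adamts15, Adamts8, Adamts12, Adam28, Adam1b, Adam3, Serpina3i, Serpina3g, Serpinb6b, Serpinb1a, Serpinb5, Plg, Acan and Vcan fall outside that rule and were named after their values were seen. Alternatives changed the minimum level, the pseudocount, the summary, the highest member, shared rows and transcript types. Some genes that this rule names are not reported. The counting step was tested on simulated data. Work used Python 3.11.15, pandas 2.3.3, numpy 2.4.6, Biopython 1.88 and matplotlib 3.10.9.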

Additional observations from a re-analysis of the deposited data

How the results depend on the processing

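With 1 value per gene, no alternative could be tested against replicate spread, and a value is called moved here when it changed by over 1.5 times. Of 110 values under alternatives, 77 moved by less. A pseudocount added to both genes of a pair cannot reverse their ratio, so the direction of the ratios was not tested. Keeping the highest row of a shared symbol could change nothing, since no member shares one, and is not counted. Leaving out members listed at 0, family medians became 0.480 FPKM (ADAM, from 0.0151), 0.756 FPKM (MMP, from 0.0142) and 0.0639 FPKM (serpin, from 0). As means of log2(FPKM + 0.1) turned back to FPKM, the family levels were 0.322 (ADAM), 0.371 (MMP), 7.64 (TIMP, from 21.6), 2.44 (plasminogen activators, from 5.61) and 0.102 (serpin). With a pseudocount of 1 FPKM they were 1.01, 0.973, 11.8, 3.19 and 0.437. Without the highest member, family sums fell to 20.7 FPKM (ADAMTS), 35.4 (MMP, without Mmp17), 43.2 (TIMP), 0.497 (plasminogen activators) and 132 (serpin). With a minimum of 0.5 FPKM, 9 MMP genes passed, and with a minimum of 2 FPKM, 5 ADAMTS genes did. Of 50 pair ratios under alternatives, 13 moved, all of them pairs with a gene under 1 FPKM. Leaving out members whose listed transcript is a noncoding form was chosen after the data were seen. No paired analysis was possible because the series has 1 group and 1 value column. Leaving out each library was not run for the same reason. Depth is unknown, so levels near 0 have no detection limit.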
